A study of Homo sapiens with 7 samples.

Results

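LIN28A and LIN28B, the pair of human LIN28 genes, were followed in 7 long-read libraries of HUES66 cells, a human embryonic stem cell line that is long established. Members were all isoforms listed under the Ensembl identifiers ENSG00000131914 (LIN28A) and ENSG00000187772 (LIN28B), 2 of the 14294 genes in the deposited table. LIN28A was represented by 222 isoforms and 19803 reads over the 7 libraries, and LIN28B by 4 isoforms and 688 reads. Each read stands for a single full-length cDNA of polyadenylated RNA.

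The study used Cas13d, an RNA-guided enzyme that cuts RNA, against isoforms of RBFOX2, which encodes a splicing regulator. The control library is labelled WT, and each of the other 6, the G libraries, is labelled with an RBFOX2 id: 178135 for G12, 178136 for G11, 178145 for G13, 178146 for G14, 178147 for G3 and 178149 for G5. All 7 cultures, the control included, are labelled piggyBac and were given doxycycline at 1 µg/ml, with a labelled time point of 24 h. The labels do not say which RBFOX2 isoform each id denotes, or whether a culture was a single clone. Every group had 1 library, so no difference below has a replicate check, and all 6 comparisons share the same control.

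Library totals lay between 16801842 reads (control) and 26678538 reads (G12). Levels are the deposited TPM, which scale each count to its library's total and ignore RNA length. RBFOX2 itself was at 107 TPM in the control, 106 in G14, 96.8 in G5, 88.5 in G12, 82.9 in G11, 55.9 in G13 and 42.1 in G3. Of 9 embryonic stem cell markers 8 were listed, with a summed level of 1595 to 1964 TPM. They lay on both sides of the control: POU5F1 (915 TPM in the control, 377 to 588 in the G libraries) and NANOG (10.0 against 3.49 to 5.54) were lower in all 6, whereas SALL4, TDGF1, DPPA4 and L1TD1 were higher in all 6. SOX2 was not listed under a gene identifier. Of 10 markers of differentiated lineages 4 were listed, and their summed level was at most 0.357 TPM.

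LIN28 proteins bind RNA through a cold-shock domain and a pair of zinc knuckles. They block the maturation of let-7 microRNAs, in part by recruiting the uridylyl transferases TUT4 and TUT7 to the let-7 precursor, which the exonuclease DIS3L2 then degrades. Mature let-7 in turn targets the 3′ untranslated regions (UTRs) of both LIN28 mRNAs, and LIN28A is widely used as a marker of pluripotent cells.

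The let-7 pairing sites are shown first because the 3′ UTR is where the isoforms of LIN28A differed. The RefSeq table (GRCh38.p14) held 8 let-7 family 5p microRNAs, and all 8 shared a single seed (bases 2 to 8). For 3 of them the mature sequence is given 5′ to 3′ with the seed in capitals.

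hsa-let-7a-5p: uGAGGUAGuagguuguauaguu

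hsa-let-7g-5p: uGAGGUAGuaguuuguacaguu

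hsa-let-7i-5p: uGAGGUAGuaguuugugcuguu

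The match to this seed, CTACCTC, was searched on the sense strand of the GENCODE 29 transcripts. LIN28A held 1 match, in the 3′ UTR 905 bases past the stop codon. LIN28B held 5, of which 1 lay in the coding sequence and 4 in the 3′ UTR. The matches follow in capitals with 15 bases before and 1 base after, on the plus strand of GRCh38.

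LIN28A match, chr1:26427348-26427370: gcacagcctattgaaCTACCTCa

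LIN28B match 1 (coding), chr6:105078445-105078467: gctaaggaatgtagtCTACCTCc

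LIN28B match 2, chr6:105078812-105078834: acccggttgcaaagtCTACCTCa

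LIN28B match 3, chr6:105081239-105081261: tactgatgatagtaaCTACCTCt

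LIN28B match 4, chr6:105081421-105081443: gtttacagcaaaaggCTACCTCa

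LIN28B match 5, chr6:105082860-105082882: aaatgatggtgttgaCTACCTCt

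A single match is common in a UTR as long as that of LIN28A (3264 bases): 19.0% of the 3489 genes with a UTR of at least that length held 1 or more in its first 3264 bases. For LIN28B, with 4549 bases of UTR, 0.170% of the 1765 genes with a UTR as long held 4 or more. A match describes these letters and says nothing about whether let-7 was bound.

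LIN28A was the more abundant of the pair in all 7 libraries and varied more between them. LIN28A lies on the plus strand of chromosome 1 at 26410778 to 26429722 (GRCh38, GENCODE 29). The control held 2850 reads of LIN28A, or 170 TPM. G3 held 3195 reads (179 TPM), G5 4642 (182), G11 2882 (138), G12 2600 (97.5), G13 1669 (73.2) and G14 1965 (93.8). G5, G3 and the control therefore lay highest, G11 between, and G12, G14 and G13 lowest.

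Relative to the control, LIN28A stood at 106% in G3 (95% interval 100 to 111) and at 108% in G5 (103 to 113). It stood at 81.6% in G11 (77.4 to 85.9), 57.5% in G12 (54.5 to 60.6), 55.3% in G14 (52.2 to 58.6) and 43.2% in G13 (40.6 to 45.9). These intervals are exact (Clopper-Pearson) and cover counting error only. Only isoforms with at least 1 control read are listed, so LIN28A forms seen in the G libraries alone are missing from these ratios. Between neighbours in this order, G3 could not be told from G5 (98.2%, interval 93.8 to 103), nor G14 from G12 (96.3%, 90.7 to 102). G13 stood below G14 (78.1%, 73.1 to 83.4) and G12 below G11 (70.4%, 66.8 to 74.3).

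On the log2 scale, after adding 0.5 TPM to both sides, LIN28A stood at 0.10 in G5, 0.08 in G3, −0.29 in G11, −0.80 in G12, −0.85 in G14 and −1.21 in G13. The median over all 7877 genes compared was 0.14, 0.12, −0.04, −0.16, −0.10 and −0.21 in the same order. A gene was compared where its mean level was at least 5 TPM. With only isoforms of at least 1 TPM on average, LIN28A stood at 0.26 in G5, 0.17 in G3 and −0.15 in G11. Under that setting LIN28A stood at −0.71 in G12, −0.70 in G14 and −1.11 in G13.

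LIN28A was past 2-fold only in G13, where it was lower. In G13, 14.6% of the genes compared were at least 2-fold lower, so a difference of this size was common there. The share of genes at least 2-fold lower was 18.9% in G14, 10.4% in G11, 10.1% in G5, 8.79% in G12 and 5.14% in G3, and the share at least 2-fold higher was 1.89%, 0.533%, 0.724%, 0.546%, 1.04% and 3.97% from G3 to G14. With a trend over transcript length and GC content removed in each library, LIN28A stood at −0.98 in G13, no longer past 2-fold, and the small excess in G3 and G5 turned to −0.20 and −0.17. Against the median of the other 6 libraries instead of the control, G11 stood at 0.11, on the other side of 0. The mean annotated length of reads with a reference identifier also differed between libraries, from 2420 bases in the control to 2709 in G14, and its part in these values was not tested. Of the other pluripotency markers, DNMT3B was lowest in G13 too (13.4 TPM against 44.3 in the control). POU5F1 and NANOG were lower in every G library, G3 and G5 included. SALL4, TDGF1, DPPA4 and L1TD1 were higher in every G library, G13 included, and ZFP42 lay on both sides of the control. The part of these markers was not tested either. A lower LIN28A total cannot be told apart from a smaller share of cells that express it.

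**Figure D1:**
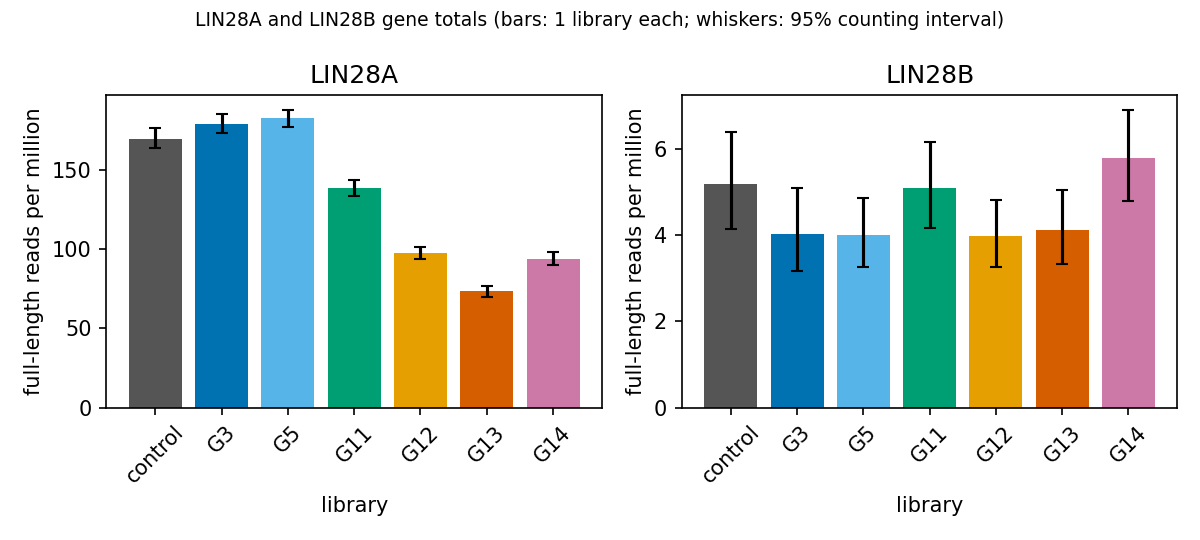
Gene totals of LIN28A (left) and LIN28B (right) in TPM of each library, 1 bar per library, with 95% counting intervals as whiskers. LIN28A is highest in G5, G3 and the control and lowest in G13 (73.2), whereas LIN28B stays between 3.97 and 5.78.

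LIN28B was scarce, with a mean of 4.60 TPM or 3.45% of the LIN28A mean. It lies on the plus strand of chromosome 6 at 104936616 to 105083332. The control held 87 reads of LIN28B (5.18 TPM), G3 72 (4.03), G5 102 (4.01), G11 106 (5.09), G12 106 (3.97), G13 94 (4.12) and G14 121 (5.78). The mean fell below the level required for the comparison across genes, so LIN28B is described without that background.

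No G library differed from the control in LIN28B beyond counting error. The ratios to the control ran from 76.7% in G12 (57.2 to 103) to 112% in G14 (84.0 to 149), and all 6 intervals included 100%. No neighbours in the order of levels could be told apart, while the lowest, G12, stood at 68.8% of the highest, G14 (52.5 to 90.0). That pair was chosen by its levels, which the interval does not take into account, so no difference is drawn from it. LIN28A reads per LIN28B read were 16.2 in G14, 17.8 in G13, 24.5 in G12, 27.2 in G11, 32.8 in the control, 44.4 in G3 and 45.5 in G5. LIN28A and LIN28B RNAs differ in length, 3341 to 3475 bases for the 6 leading gapped LIN28A isoforms, 3982 for the uninterrupted form and 5343 to 5511 for LIN28B, and how fully RNAs of each length were captured was not tested.

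The isoforms of LIN28A were unlike those of most genes in that nearly all its reads carried hashed rather than reference identifiers. Only 1 of its 222 isoforms had a reference identifier, ENST00000326279.11, and it held 6.29% of the reads. The median over the 7877 genes was 88.8%, and 245 genes (3.11%) had a share as low or lower. The hashed identifiers encode the exon boundaries, and 209 of the 221 could be read back exactly, which covered 18540 reads and left 17 reads of 12 isoforms unread. No decoded isoform had the annotated junctions of ENST00000326279 alone or exactly those of ENST00000254231.4, an annotated form with a gap in its 3′ UTR.

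What set the decoded isoforms apart was a gap in the last exon, exon 4, which holds the end of the coding sequence and the whole 3′ UTR (chr1:26426242-26429722). Any such gap or other departure from the annotated junctions was present in 95.9% of LIN28A reads in G5, 95.4% in G11, 95.1% in the control, 94.96% in G14, 94.5% in G13, 93.6% in G12 and 86.2% in G3. G3 was the lowest. Of the decoded isoforms, 153 had 1 gap within exon 4 and no other added junction, and together they held 17537 reads. Their gaps used 119 start positions but only 41 end positions, and were between 113 and 2843 bases long with a median over reads of 563.

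The gaps lay over a pair of inverted repeats. A stretch at chr1:26428541-26428836 and another at chr1:26428885-26429186 matched as reverse complements, with 80.7% identity over 306 aligned columns and 48 bases between them. Between 99.6% and 99.9% of the one-gap reads of a library had their gap end in the right copy. The start was in the left copy for 57.3% of these reads in G3, 56.7% in G5, 54.9% in the control, 50.6% in G12, 50.5% in G11, 47.0% in G14 and 43.7% in G13. A single end position, 2679 bases past the stop codon, served 30 isoforms and 9823 reads.

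The boundaries of the 5 leading gaps are given 5′ to 3′ from the GENCODE 29 transcript, because their edge letters differ. At a gap start the capitals are the first 2 bases removed, and at a gap end the last 2 removed.

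Start of the isoform 1 gap, chr1:26428507-26428526: aacctcctaaGTcaagacca

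Start of the isoform 2 gap, chr1:26428567-26428586: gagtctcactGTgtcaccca

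Start of the isoform 3 gap, chr1:26428576-26428595: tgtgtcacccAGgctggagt

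Start of the isoform 4 gap, chr1:26428499-26428518: ttgttcccaaCCtcctaagt

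Start of the isoform 5 gap, chr1:26428486-26428505: aaccctccatCCcttgttcc

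End of the isoform 1, 2, 4 and 5 gaps, chr1:26429128-26429147: tgcactccAGcctggttaca

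End of the isoform 3 gap, chr1:26429084-26429103: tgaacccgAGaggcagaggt

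Most introns begin with GT and end with AG. Isoforms 1 and 2 removed 621 and 561 bases with GT and AG at their edges. Isoforms 3, 4, 5 and 6 removed 508, 629, 642 and 563 bases without that pair in any placement that gives the same RNA. Of the 153 one-gap isoforms, 22 had GT and AG, and 113 had at least 1 base repeated at both edges, so that the gap could be placed at more than 1 position. In 59 of them at least 4 bases were repeated, and these held 28.9% of the one-gap reads.

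The share of one-gap reads with GT and AG was 42.5% in G5, 39.5% in the control, 38.0% in G11, 36.6% in G12, 32.3% in G13, 31.6% in G14 and 28.1% in G3. Reads without the pair were thus the majority in all 7 libraries. Whether a gap was present in the RNA of the cells or arose in cDNA synthesis or alignment was not tested.

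The gap of isoform 3 matches an annotated one. ENST00000254231.4 lacks 26428588 to 26429095, and isoform 3 lacks 26428586 to 26429093. Both remove 508 bases, and because 4 bases repeat at the edges both placements leave the same sequence over that gap. The authors' table listed it as a hashed isoform. In the annotated placement the removed bases begin with GC and end with AG. Gaps with GC and AG were not counted apart from the others without GT and AG. Isoform 3 held 742 of the 2648 one-gap reads in G3 and 304 of 2441 in the control, so the shares above depend on that choice.

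**Figure D2:**
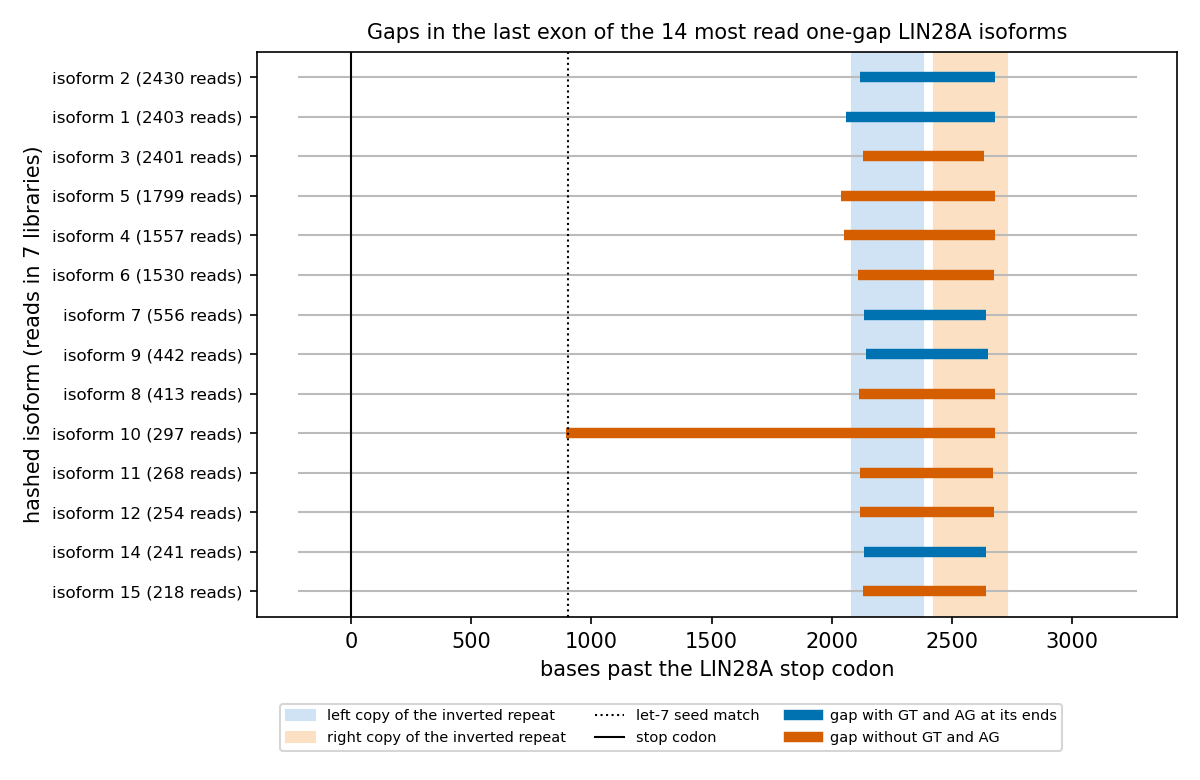
Gaps of the 14 one-gap LIN28A isoforms with the most reads, drawn to scale along exon 4 as bases past the stop codon, blue where GT and AG stand at the edges and orange where they do not. Shaded bands are the copies of the inverted repeat, and the gap of isoform 10 alone among the 14 also takes out the let-7 match at 905 bases.

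G3 departed furthest from the control in the use of these isoforms. Usage was scored as the total variation distance between isoform shares, running from 0 for equal shares to 1 for no isoform in common. LIN28A stood at 0.39 in G3, 0.28 in G13, 0.26 in G14, 0.21 in G11, 0.18 in G12 and 0.16 in G5. The median over the 3388 genes with a mean of at least 50 TPM was between 0.03 and 0.04 in all 6. A distance of at least 0.25 was reached by LIN28A in G3, G13 and G14, against 0.915% of those genes in G3, 2.21% in G13, 2.21% in G14, 1.27% in G11, 1.21% in G5 and 1% in G12. The distance grows with the number of isoforms even where shares differ by counting error alone, so no rank among genes is drawn from it.

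The 6 isoforms and the uninterrupted form were the only ones with a mean share of at least 5% of LIN28A reads. The uninterrupted form, ENST00000326279.11, held 13.8% of LIN28A reads in G3 (Wilson interval 12.7 to 15.1), 6.31% in G12, 5.45% in G13, 5.04% in G14, 4.55% in G11, 4.49% in the control (3.79 to 5.31) and 4.11% in G5. G3 lay above the other 6 with no overlap of intervals. In TPM it was at 7.62 in the control and 24.8 in G3, 325% of the control (266 to 399), while the LIN28A total there was 106%.

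Isoform 1 held 14.99% in G5, 14.4% in G13, 14.1% in G11, 13.1% in G14, 12.96% in G12, 10.5% in the control (9.39 to 11.6) and 5.23% in G3 (4.51 to 6.05). G3 was the lowest, and the other 5 G libraries had intervals above that of the control. Isoform 2 held 15.4% in G5, 14.8% in the control, 12.5% in G11, 11.2% in G12, 10.4% in G14, 9.23% in G3 and 8.45% in G13. Its highest shares were in G5 and the control.

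Isoform 3, the one that matches the annotated gap, held 23.2% in G3 (21.8 to 24.7), 12.9% in G5, 10.7% in the control (9.59 to 11.9), 10.0% in G12, 7.79% in G14, 7.77% in G11 and 6.95% in G13 (5.83 to 8.27). G3 was again apart, on the high side, at 230% of the control level in TPM (201 to 263). Isoform 5 held 12.9% in G3, 10.3% in G5, 8.40% in G14, 8.22% in G11, 7.65% in the control, 7% in G12 and 6.29% in G13.

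Isoform 4 held 14.5% in G14 (13.02 to 16.1), 13.4% in G13, 11.3% in G11, 9.73% in G12, 6.25% in the control (5.41 to 7.19), 5.82% in G5 and 0.689% in G3 (0.455 to 1.04). In TPM it was at 10.6 in the control and 1.23 in G3, 11.6% of the control (7.11 to 18.2), and at 128% in G14 (106 to 156). G14 held the isoform above the control although the LIN28A total there was 55.3%. Isoform 6 held 11.3% in G14, 10.0% in G11, 9.05% in G13, 8.85% in G12, 8.72% in G5, 6.39% in the control and 1.60% in G3.

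G3 thus held less of isoforms 1, 2, 4 and 6 and more of isoforms 3, 5 and the uninterrupted form, as shares of LIN28A. Isoforms with the end shared by isoforms 1, 2, 4 and 5 made up 40.3% of one-gap reads in G3, against 63.7% in G13, 62.0% in G14, 61.7% in G11, 57.7% in G12, 56.8% in G5 and 54.9% in the control. RBFOX2 was lowest in G3 as well, and its part in these shares was not tested. RNAs with a gap are shorter, and the mean length of decoded LIN28A reads was 3024 bases in the control, 3042 in G13, 3108 in G12, 3180 in G11, 3198 in G14, 3229 in G3 and 3243 in G5. The medians ran in another order: 3424 in G3, 3412 in the control, G5, G11 and G12, and 3363 in G13 and G14. Only isoforms with at least 1 control read are listed, which favours rare forms of the control in these means.

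**Figure D3:**
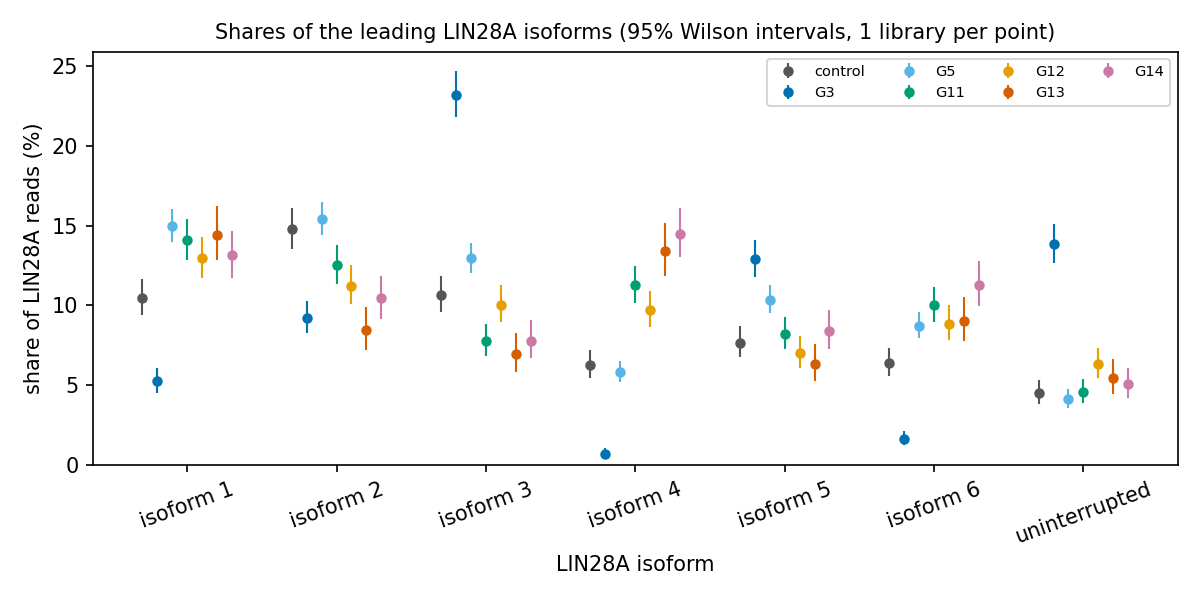
Share of LIN28A reads held by the 6 leading gapped isoforms and by the uninterrupted form, 1 point per library with its 95% Wilson interval. G3 (dark blue) lies apart in isoform 3 (23.2%), isoform 4 (0.689%) and the uninterrupted form (13.8%).

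For let-7 pairing and for the protein, the gaps matter by what they remove. Most LIN28A reads kept both the coding sequence and the let-7 match and had a gap elsewhere in the 3′ UTR: 85.7% in G5, 82.0% in G11, 81.8% in G14, 76.3% in G12, 75.6% in the control, 74.5% in G13 and 74.4% in G3. Of the 15710 reads of this kind, 50 had a gap before the match, and 7 of these had no gap past it. Reads with the coding sequence whole but the match removed made up 8.15% in G12, 8.04% in G14, 7.97% in G13, 7.36% in G11, 6.82% in G3, 6.39% in the control (5.55 to 7.34) and 5.69% in G5. The let-7 match was thus kept in most LIN28A reads of every library. For its loss with the coding sequence whole, the intervals of the 6 G libraries over all isoforms overlapped that of the control. Reads with a cut coding sequence are counted apart below, and the gaps of the 5 most read such isoforms also take out the match. Reads with the coding sequence whole and the match kept made up 80.1% in the control (78.6 to 81.6) and 80.0% in G13. They made up 82.7% in G12, 86.5% in G11, 86.9% in G14, 88.2% in G3 and 89.8% in G5 (88.9 to 90.6). The table lists only isoforms with at least 1 read in the control, which favours rare forms of the control. Among isoforms with at least 100 reads in all, the share with the coding sequence whole but the match removed was 4.33% in G14 (3.48 to 5.38), 3.15% in G11 (2.55 to 3.89), 2.83% in G13 (2.10 to 3.81), 2.73% in G12 (2.14 to 3.49), 2.15% in G3 (1.67 to 2.75), 1.72% in G5 (1.36 to 2.15) and 1.27% in the control (0.894 to 1.81). With that limit, which left 2 isoforms of this kind, G14, G11, G13 and G12 lay above the control with no overlap of intervals. The 5 isoforms past the limit with a cut coding sequence also lack the match and are not in these shares. The limit counts reads over all 7 libraries, so it favours forms that are high in G libraries. Isoform 23 passed it with 128 reads, 39 in G3 and 7 in the control. Isoform 26 did not pass, with 87 reads, 18 of them in the control. The separation thus depends on the limit, and no difference is drawn from it.

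The leading isoform without the match, isoform 10, lacked 1784 bases from 896 to 2679 bases past the stop codon, which takes out the match but leaves the coding sequence. It held 68 reads in G11, 59 in G14, 50 in G5, 41 in G12, 35 in G13, 23 in the control and 21 in G3. As a share of LIN28A that was 0.807% in the control, 0.657% in G3 and 3.003% in G14.

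Reads whose gap cut into the coding sequence held 13.02% of LIN28A in the control, 12.04% in G13, 9.12% in G12, 6.07% in G11, 5.09% in G14, 4.98% in G3 and 4.48% in G5. Among isoforms with at least 100 reads in all, the shares were 9.31% in G13, 8.45% in the control, 4.89% in G12, 4.15% in G11, 3.15% in G14, 3.08% in G3 and 2.69% in G5. The intervals of G13 and the control overlapped over all isoforms (10.6 to 13.7 against 11.8 to 14.3). They also overlapped with the limit (7.94 to 10.9 against 7.40 to 9.65). Only isoforms with at least 1 control read are listed, which favours rare forms of the control in the shares over all isoforms. The limit counts reads over all libraries, and isoform 21 passed it with 115 reads, 39 of them in G13 and 11 in the control. The leading isoform of this kind, isoform 16, joined exon 3 at 26425338 to the right copy of the repeat and held 69 reads in the control and 14 to 27 in the G libraries.

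**Figure D4:**
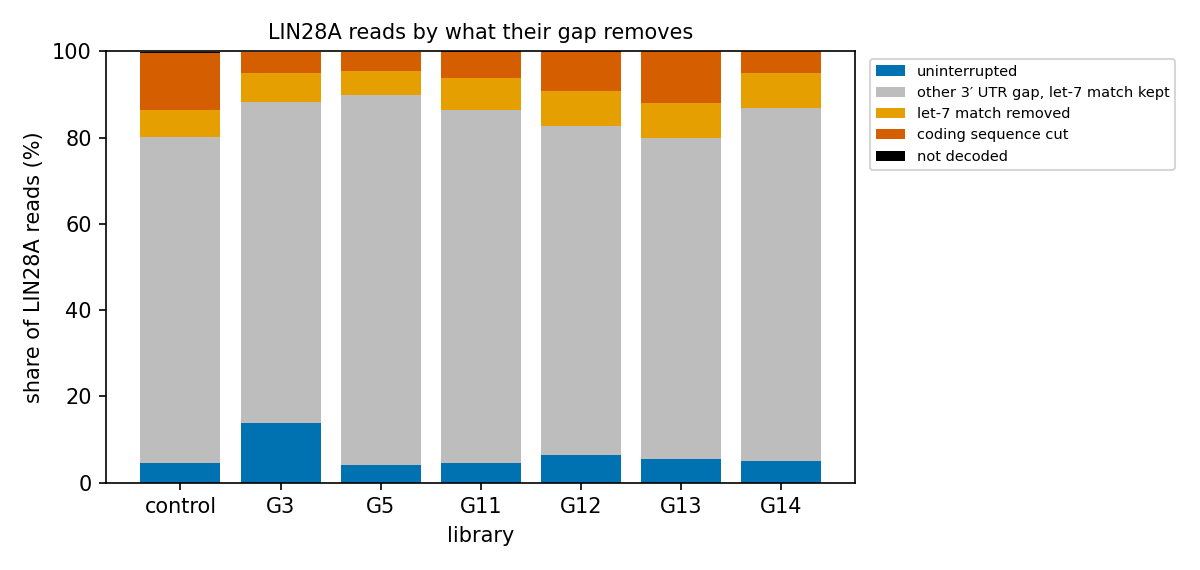
Share of LIN28A reads in each library, stacked by what the gap removes: nothing (uninterrupted), UTR sequence other than the let-7 match, the let-7 match but no coding sequence, or part of the coding sequence. Gaps that spare the let-7 match make up 74.4% to 85.7% of reads, and the uninterrupted share stands out in G3 (13.8%).

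No listed LIN28B isoform had a gap of this kind. Of the 87 reads in the control, 0 were assigned to a form with a gap in the 3′ UTR, which allows a share of up to 3.45% there. Forms seen only in G libraries are not in the table, so no limit is given for those. For the pair of reference isoforms the inner exon boundaries were taken from the annotation and the ends from the table. All LIN28B isoforms were listed with an end at 105083331 to 105083333, past all 5 let-7 matches.

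The LIN28B isoforms differed instead in where they began. ENST00000345080.5, which codes for 250 residues in GENCODE 29, held 85.3% of LIN28B reads in G5, 81.9% in G13, 78.2% in the control, 77.4% in G11, 73.6% in G3, 73.6% in G12 and 73.6% in G14. ENST00000637759.1 begins further upstream, has 5 exons and codes for 258 residues. It held 19.4% in G3, 12.6% in the control, 12.3% in G11, 9.92% in G14, 7.45% in G13, 6.86% in G5 and 6.604% in G12. Its annotated end is 105080479, but the table's isoform ran to 105083333.

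A hashed LIN28B isoform began at 104950459, at the exon where the longer coding sequence starts (104950476), and held 17.9% in G12 (11.8 to 26.3), 14.05% in G14, 10.6% in G13, 10.4% in G11, 8.05% in the control (3.95 to 15.7), 7.84% in G5 and 5.56% in G3. The remaining isoform lacked 98 bases at the end of the second exon and held 7 reads in all. With 72 to 121 LIN28B reads in a library, the intervals of all 3 starts overlapped that of the control in all 6 G libraries.

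The listed 3′ ends of LIN28A were almost uniform. Ends were grouped where they lay within 50 bases of each other, which gave 3 groups for LIN28A and 1 for LIN28B. The leading LIN28A group, at 26429695 to 26429729, held 100% of reads in G5, G11, G13 and G14, 99.96% in G12, 99.9% in G3 and 99.8% in the control. The identifiers encode inner exon boundaries only, and each listed isoform carries 1 end. Reads with the same junctions but different ends would thus be listed together. Variety at the 3′ end therefore cannot be judged from these shares.

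The genes that process let-7 were followed from a list. Of 10 microRNA processing genes 9 were compared, and the number at least 2-fold lower was 3 in G14, 2 in G11, 2 in G12, 2 in G13, 0 in G3 and 0 in G5, with none at least 2-fold higher. Over all genes compared, the share at least 2-fold lower was 18.9% in G14, 10.4% in G11, 8.79% in G12 and 14.6% in G13, and with 9 genes a count of 2 or 3 is a small number. The list's median log2 ratio was −0.75 in G13, −0.54 in G14, −0.51 in G12, −0.48 in G11, −0.10 in G5 and 0.17 in G3, against −0.21, −0.10, −0.16, −0.04, 0.14 and 0.12 over all genes. The genes past 2-fold were AGO1 and AGO2, Argonaute proteins that carry mature microRNAs, joined in G14 by TARBP2, a partner of Dicer.

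AGO1 was at 16.2 TPM in G3, 14.3 in the control, 11.3 in G5, 5.57 in G11, 3.75 in G12, 2.67 in G14 and 1.67 in G13. AGO2 was at 13.4 TPM in G3, 8.63 in the control, 7.23 in G5, 3.50 in G11, 2.85 in G12, 2.29 in G14 and 1.23 in G13. Both were highest in G3 and lowest in G13, with log2 ratios in G13 of −2.78 and −2.40. DICER1, which cuts the let-7 precursor, lay under the control in all 6 G libraries by less than 2-fold (log2 ratios from −0.94 to −0.26). DROSHA and XPO5, which make and export the precursor, stayed within 0.28 of the control on the log2 scale.

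Of 5 genes for let-7 decay and LIN28 partners 3 were compared. TUT4 lay at 9.76 TPM in the control, and the G libraries held 11.2 to 16.9. TUT7 was at 9.88 in the control and between 11.8 and 18.6 in the G libraries, and neither was past 2-fold in any. DIS3L2, at 10.3 TPM in the control, was at 3.03 in G13, 5.06 in G14, 5.21 in G12, 6.24 in G11, 6.80 in G5 and 9.41 in G3. It was past 2-fold in G13 alone, lower. TRIM71 (1.09 TPM on average) and KHSRP (1.42) were too low to be compared.

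The let-7 host genes gave no level to compare. Of 6 only HUWE1 was listed, at 0.07 TPM on average, and microRNAs themselves are not measured in these libraries.

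Of 16 let-7 targets 12 were compared, and 0, 0, 0, 1, 1 and 2 of them were at least 2-fold lower from G3 to G14, with none at least 2-fold higher. These counts lay near or under the share over all genes, 18.9% in G14, 14.6% in G13 and 8.79% in G12. Their median log2 ratio was −0.11 in G13, −0.03 in G12, 0.08 in G14, 0.10 in G11, 0.31 in G5 and 0.39 in G3, above the median of all genes by 0.10 to 0.27 in each library. ARID3B, a DNA-binding protein, was at 135 TPM in G3, 84.9 in G5, 69.9 in the control, 37.5 in G11, 23.8 in G12, 21.6 in G14 and 10.5 in G13. It was the target past 2-fold in G12 and G13, and with CCND1, which encodes cyclin D1 (129.7 in G14 against 279 in the control), in G14.

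HMGA2, a chromatin protein, lay at 17.6 TPM in the control, and the G libraries held 21.3 to 26.1. IGF2BP3, an RNA-binding protein, was at 187 in G14, 152 in G5, 151 in G13, 148 in G11, 138 in G12, 108 in G3 and 97.5 in the control. HMGA1 was at 8566 in the control, 10178 in G3 and 4756 in G13. The targets thus lay on both sides of the control, and those that were higher stayed under 2-fold.

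**Figure D5:**
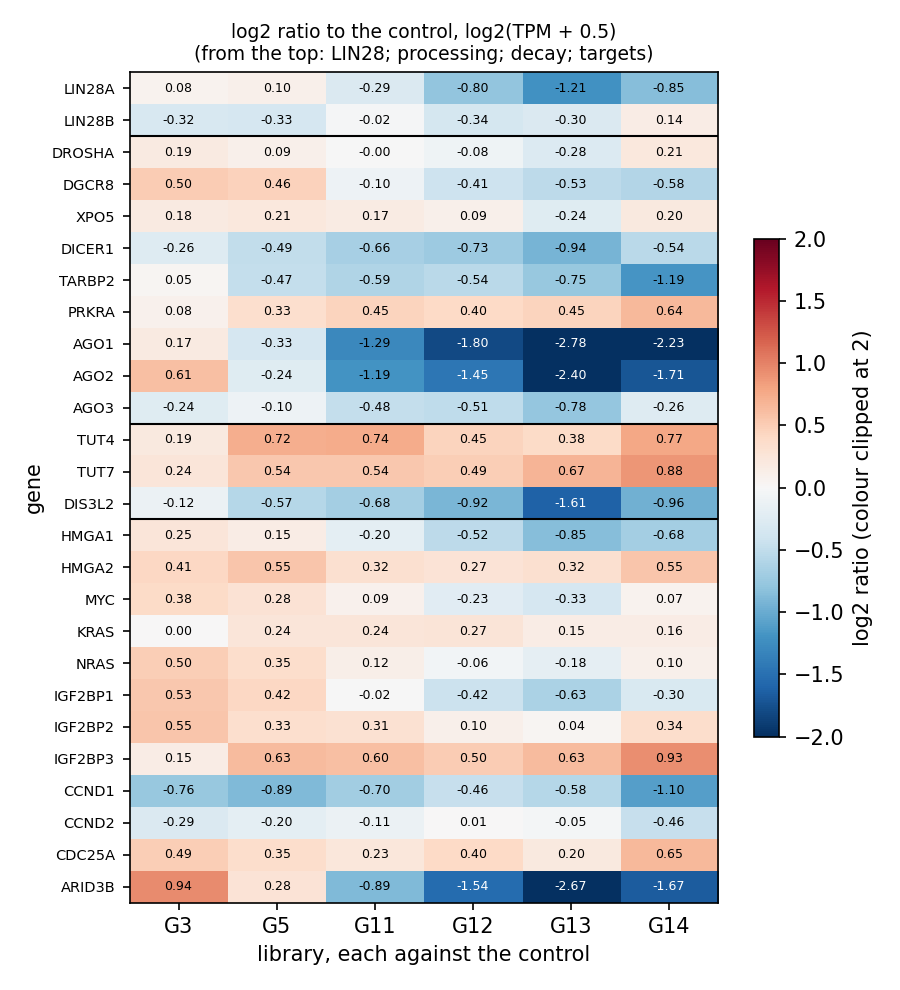
log2 ratio to the control of LIN28A, LIN28B and the compared genes of the let-7 lists, 1 column per G library, on log2(TPM + 0.5), with red for higher and blue for lower and colours clipped at 2. AGO1, AGO2 and ARID3B reach the lowest values in G13 (−2.78, −2.40 and −2.67), whereas TUT4, TUT7, HMGA2 and IGF2BP3 are higher in all 6 columns.

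The genes most like LIN28A over the 7 libraries, by Pearson correlation of log2 levels among 6618 genes with a mean of at least 10 TPM, were SPNS1, RBM14, RSAD1, SDC1 and SCNN1A (r between 0.995 and 0.999). SPNS1, a lysosomal transporter, was at 103.7 TPM in G5, 103.2 in G3, 93.9 in the control, 75.03 in G11, 52.8 in G12, 50.2 in G14 and 39.0 in G13. The pattern was common: 935 genes (14.1%) had r of at least 0.9 with LIN28A. The 7 points share their scaling to library totals. For LIN28B the nearest were PRIMPOL, CHD2, ASTN2, ZNF23 and RAB2B (r between 0.85 and 0.95), and 2 of 6619 genes reached 0.9.

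The genes beside the pair varied less than LIN28A or were barely detected. DHDDS, downstream of LIN28A, was at 33.4 TPM in G14, 36.4 in G13, 40.5 in G12, 41.0 in G11, 43.0 in G5, 45.3 in the control and 47.3 in G3. HACE1, upstream of LIN28B on the opposite strand, was at 20.7 in the control and between 16.3 and 26.9 in the G libraries. BVES, on the other side of LIN28B, was at most 0.224. ZNF683, LIN28B-AS1 and the pseudogenes LIN28AP1 and LIN28AP2 had no listed isoform. Within the LIN28A span, 4 isoforms carried no gene identifier and held 8 reads in the control and 1 to 6 in the G libraries, which are not counted above.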

How the data were processed

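The authors sequenced polyadenylated RNA of 7 HUES66 cultures as cDNA joined in 8-fold arrays on the Revio system, per the labels' protocols. Per the submitters' processing notes minimap2 2.17 and GRCh38 (hg38) were used; the isoform caller, annotation and filters are not given in the sources used here. Per the file headers, the deposited table holds full-length read counts per isoform and TPM values. The deposited TPM equalled the count divided by 1 constant per library, with no length term, and that constant gave the library total. Empty cells were read as 0. Every listed isoform had at least 1 control read, and listed isoforms held 98.1% to 98.6% of the reads of a G library. RNA spike-ins were not used.

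Isoforms were summed by Ensembl stem and matched to symbols and GENCODE 29 on GRCh38. Starts are counted from 0 in the table and printed with 1 added. Ratios carry exact (Clopper-Pearson) and shares Wilson 95% intervals. They cover counting error only, since the reads carry no molecular identifiers. No p-value was computed, because each group had 1 library. A limit for 0 reads is 3 reads of the total. Genes were compared on log2(TPM + 0.5) where their mean TPM was at least 5.

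Hashed identifiers of LIN28A and LIN28B were inverted as 64-bit tuple hashes of exon starts and ends. A structure was kept only where hashing it again gave both numbers, and the structure of a reference identifier is that of GENCODE 29, version 10 of ENST00000326279 for the table's version 11. The inversion and the classes of gaps were chosen after seeing the data. Fold changes of genes, and the recovery of a single unknown exon boundary from a hash, were tested on simulated data. The classes of gaps, and the search for more than a single unknown boundary, were not. The inverted repeat was found by local alignment (Biopython 1.88), and tables used pandas 2.3.3, numpy 2.4.6 and scipy 1.17.1. RefSeq microRNA sequences were used, and protein sequences were not used here. The edge sequences of the isoform 6 gap are not reported here.

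Named were LIN28A, LIN28B, their isoforms and 3′ ends of at least 5% mean share, the genes of the lists, the 5 genes most alike and the neighbouring genes. Isoforms 10 and 16 and the remaining LIN28B isoforms were named after their values were seen. Members and lists were chosen with earlier results of these data known. Alternatives were pseudocounts of 0.1 and 1, size factors, isoform and level filters, another reference, other widths of 3′ ends and leaving out each G library. A length and GC trend and the 100-read limit were added after seeing the data.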

Additional observations from a re-analysis of the deposited data

Results flagged for a closer look

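In 4 of the leading LIN28A isoforms the G libraries lay on opposite sides of the control, with intervals that did not overlap that of the control. The share of LIN28A reads in isoform 1 was 9.77 percentage points higher in G5 than in G3. The share in isoform 3 was 16.3 points higher in G3 than in G13. Isoform 4 was 13.8 points higher in G14 than in G3, and isoform 6 was 9.70 points higher in G14 than in G3. With 1 library per group, the difference between these conditions was not tested. G3 is an end of the range in all 4. Without G3, isoforms 1 and 6 lay above the control in every remaining G library. Isoform 4 then ran from 5.82% in G5 to 14.5% in G14, but the interval of G5 overlapped that of the control. Of the 4, only isoform 3 kept G libraries on both sides with no overlap, G5 above and G13 below. The opposite sides in isoforms 1, 4 and 6 thus rest on the G3 library alone.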

How the results depend on the processing

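No paired analysis was possible because each group had 1 library and no result comes from a test. No setting reversed a direction that was past 2-fold. The median log2 ratio of LIN28A over the G libraries was −0.54. It was −0.45 with size factors, −0.27 with reference identifiers only, −0.43 with isoforms of at least 1 TPM, −0.27 against the median of the other 6 libraries, and −0.80 to −0.29 with each G library left out. With reference identifiers only, LIN28A in G3 stood at 1.64, since that setting keeps the uninterrupted form alone. The LIN28B total kept within its counting interval under all 13 settings (−0.47 to −0.14). The let-7 targets' median of 0.15 was 0.034 against the other 6 libraries and −0.031 without a filter on low values. The median difference of the leading LIN28A isoform's share from the control, 3.15 points, was 0 with reference identifiers only, where 1 isoform is left, and 0.32 against the other 6. That of the leading LIN28A 3′ end, 0.18 points, was 0 with isoforms of at least 1 TPM, 0 with reference identifiers only and 0.019 against the other 6. The share with a 3′ UTR gap that spares the let-7 match differed from the control by a median of 3.44 points, by 0.54 at 1 TPM, 1.22 at 100 reads in all, 1.72 against the other 6 and 0.70 to 6.18 with each G library left out. Reads with a cut coding sequence differed by −7.44 points, by −3.69 at 1 TPM, −4.81 at 100 reads and −1.77 against the other 6. The cause was not tested. Depth limits LIN28B most: with 72 to 121 reads a library, its ratios carried intervals such as 57.2% to 103%, and a floor of 3 reads was worth 0.112 to 0.179 TPM.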

Other observations

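The 5 most read isoforms with a cut coding sequence ended their gap between 26429052 and 26429137, within the right copy of the inverted repeat, and began it in exon 3 or in the coding part of exon 4. Isoform 13 held 44 reads in G13, 43 in the control, 32 in G12, 29 in G5, 25 in G11, 12 in G14 and 10 in G3. Isoform 21 held 39 reads in G13, 29 in G11, 12 in G5, 12 in G12, 11 in the control, 11 in G14 and 1 in G3, so G13 and G11 were highest.

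LIN28A reads with at least 2 gaps made up 2.27% in G12, 2.22% in G11, 2.18% in the control (1.70 to 2.78), 1.83% in G5, 1.74% in G13, 1.63% in G14 and 0.407% in G3 (0.238 to 0.695). G3 was the lowest, with 13 such reads. These values were looked at after the isoform shares were known, and the difference between conditions was not tested.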
